A study of Mus musculus with 24 samples.

Results

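Transcript levels and splicing were examined for the genes of Polycomb repressive complex 2 (PRC2) in mouse embryonic stem cells (ESCs) and 3 neural stages derived from them. The genes were chosen by symbol as 8 rows of an expression table of 22667 genes, namely Ezh1, Ezh2, Eed, Suz12, Rbbp4, Mtf2, Phf19 and Jarid2. A splicing table of the same samples held 66 exons of these genes out of 54141, 114 introns out of 160806 and 84 alternative splice sites out of 80861. The samples were ESCs, day 7 neural progenitors (NPCs), day 10 cells enriched for polysialylated NCAM (PSA-NCAM+), and neurons replated at day 7 and grown for 14 days more. WT cells carry 2 unaltered Polr2a alleles. Slow/slow cells are homozygous for the substitution R749H in Polr2a, which encodes the catalytic subunit of RNA polymerase II and which the study describes as giving a slowly elongating enzyme. With 4 stages and 3 replicates of each genotype there were 24 libraries in 8 groups.

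Per the methods of the study, all slow/slow samples go back to targeted E14 ESCs, so that genotype and line cannot be told apart here. The replicates were independent differentiations. Cells of the PSA-NCAM+ stage were enriched on beads, and the mutant cells were plated more densely than WT cells at the start of differentiation, a difference that cannot be separated from genotype after the ESC stage.

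PRC2 places methyl groups on lysine 27 of histone H3, a mark of silenced developmental genes. EZH2 or its paralogue EZH1 is the catalytic subunit, EED binds the mark and stimulates the enzyme, SUZ12 holds the complex together, and RBBP4 is a histone-binding protein shared with other chromatin complexes. MTF2 and PHF19 are Polycomb-like proteins that help recruit the complex to CpG-rich DNA, and JARID2 is an alternative accessory subunit. In many tissues EZH2 is the main enzyme of dividing cells, whereas EZH1 is the more abundant one in cells that have left the cell cycle. The complex is dispensable for the self-renewal of ESCs but needed for their orderly differentiation.

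Library totals ranged from 32974432 to 104466886 counts. The 2 PSA-NCAM+ libraries numbered 1, one of each genotype, stood apart from replicates 2 and 3 of their groups. The SD of the log2 difference between libraries over genes was 0.70 to 1.01 between replicate 1 and the others there, against 0.28 to 0.43 for every other pair of replicates. Since all groups share 1 estimate of the spread, the errors of several PRC2 genes at the other stages were wider with them than without them. Each test of the 8 genes is therefore given over all 24 libraries first, and again without these 2 libraries where the call differs. Polr2a itself was at 716.9 ± 26.3 CPM (SD, n = 3) for WT and 707 ± 49.3 CPM for slow/slow ESCs, and was lower by 0.94 ± 0.16 (log2, SE) in slow/slow neurons (FDR = 7.8e-05), where CPM is the count relative to the TMM-scaled size of the library. Gene counts do not separate its alleles.

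The stage labels were compared with lists of marker genes, given as the summed level of a list in a library. The 9 pluripotency genes in the table summed to between 6781 and 7569 CPM in ESCs, 1633 to 2646 CPM in NPCs and 97.2 to 145.5 CPM in neurons. The 9 neuronal genes summed to between 4322 and 4670 CPM in WT and between 3691 and 3947 CPM in slow/slow neurons. In PSA-NCAM+ cells they summed to 84.3 to 118.4 CPM for WT and 254.7 to 636.8 CPM for slow/slow cells, against 219.1 to 264.6 CPM and 345.1 to 407.8 CPM in ESCs. The sum at the PSA-NCAM+ stage thus lay far below that of neurons, although 5 of the 9 genes were higher and 2 lower than in ESCs in WT and 6 higher and 1 lower in slow/slow cells, where 71.2% and 73.4% of all genes were called. The sum of 8 mesoderm and fibroblast genes in PSA-NCAM+ cells was highest in replicate 1 of both genotypes, at 759.8 CPM for WT and 1208.5 CPM for slow/slow cells, against 407.2 to 574.6 CPM in the other 4 libraries. At the NPC stage the pluripotency sum was 2581 to 2646 CPM for WT and 1633 to 1863 CPM for slow/slow cells, while the sum of 7 neural progenitor genes was 496 to 520 CPM and 694 to 808 CPM. In ESCs the sum of these 7 genes was 690 to 747 CPM for WT and 680 to 720 CPM for slow/slow cells, so WT NPCs lay below ESCs. Of the 7, 3 were called higher and 2 lower in WT NPCs than in ESCs (34.0% and 31.6% of all genes). In neurons their sum was 2005 to 2302 CPM for WT and 2538 to 2911 CPM for slow/slow cells. That of 10 astrocyte and oligodendrocyte genes was 231.2 to 289.0 CPM and 108.7 to 117.4 CPM there. Of the 9 of these that were tested, 3 were called higher and 5 lower in slow/slow than in WT neurons, where 51.9% of all genes were called (23.4% higher). The genotypes therefore differed in these markers in neurons as well as at the stages at which most differences in PRC2 genes were found. The part of cell composition in the differences of PRC2 genes was not tested. In bulk samples fewer cells of a type and less RNA per cell cannot be told apart.

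The scale of expression was compared between the genes only per transcript length, with the mean RPKM values deposited by the authors, which come without an error. In WT ESCs Rbbp4 was the most abundant at 180.7 RPKM, followed by Eed at 105.5, Mtf2 at 105.4 and Suz12 at 97.5 RPKM. Ezh2 was at 57.6 RPKM, Jarid2 at 36.3, Ezh1 at 11.97 and Phf19 at 0.70 RPKM. Rbbp4 remained first in WT neurons at 107.2 RPKM, where Ezh2 at 37.4 RPKM stood above Mtf2 at 27.4, Jarid2 at 25.1, Eed at 23.9 and Suz12 at 21.1 RPKM. In slow/slow neurons Ezh2 was at 77.4 RPKM and Suz12 at 32.1 RPKM.

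**Figure D1:**
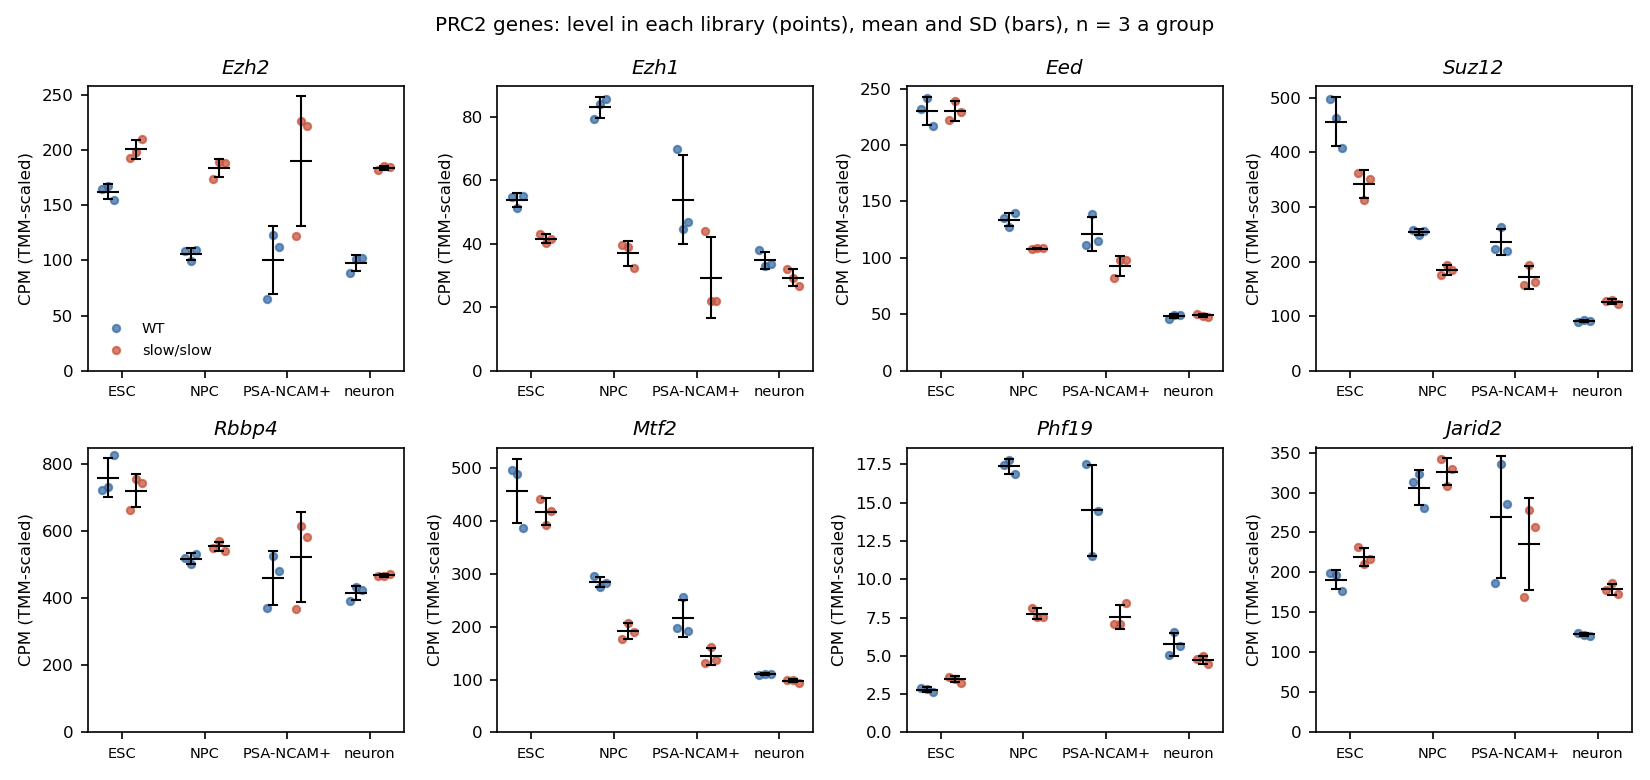
Level of each PRC2 gene in every library, in TMM-scaled CPM (vertical axes start at 0, scales differ between panels), by stage and genotype; points are libraries, black bars the mean and SD of 3. Eed, Suz12 and Mtf2 fall from ESCs to neurons in both genotypes, Ezh2 falls in WT cells but stays between 174.1 and 226.3 CPM in all slow/slow libraries after the ESC stage except 1 at 122.5 CPM, and Phf19 has its highest mean in WT NPCs.

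Gene positions are given on GRCm38. The catalytic subunit gene Ezh2 (chr6:47530139-47595341, minus strand) was at 164.9, 167.5 and 154.2 CPM in the 3 WT ESC libraries and at 193.1, 198.4 and 209.6 CPM for slow/slow ESCs. WT NPCs had 108.1, 99.5 and 109.5 CPM against 174.1, 188.7 and 187.8 CPM for slow/slow NPCs. In PSA-NCAM+ cells the values were 65.4, 123.1 and 111.9 CPM for WT and 122.5, 226.3 and 221.3 CPM for slow/slow cells. The groups did not overlap in ESCs and NPCs, whereas in PSA-NCAM+ cells the slow/slow library numbered 1 fell just below the highest WT library, and replicate 1 was the lowest of its group in both genotypes. In neurons WT cells had 88.9, 101.7 and 102.0 CPM, and slow/slow cells 181.9, 185.1 and 184.6 CPM, again without overlap. Such a separation was common in these data, with 59.8% of all genes in ESCs, 74.7% in NPCs, 43.1% at the PSA-NCAM+ stage and 75.6% in neurons.

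Ezh2 was thus higher in slow/slow cells by 0.80 ± 0.19 (log2, SE) in NPCs (FDR = 0.0013), by 0.93 ± 0.19 in PSA-NCAM+ cells (FDR = 3.1e-04) and by 0.91 ± 0.19 in neurons (FDR = 3.9e-04), or 1.74-, 1.90- and 1.89-fold. In ESCs the difference was 0.30 ± 0.19 (FDR = 0.21), and without the 2 libraries that stood apart it was 0.30 ± 0.06 (FDR = 1.4e-04). Within WT cells Ezh2 was lower than in ESCs by 0.62 ± 0.19 in NPCs, by 0.70 ± 0.19 at the PSA-NCAM+ stage and by 0.73 ± 0.19 in neurons (FDR = 0.0067, 0.0025 and 0.0012). The corresponding values in slow/slow cells were -0.13 ± 0.19, -0.08 ± 0.19 and -0.12 ± 0.19, none past the threshold. Without the 2 libraries the value in slow/slow PSA-NCAM+ cells was 0.16 ± 0.07 (FDR = 0.032), that is, of the opposite sign.

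Whether the stage changes of Ezh2 differed between genotypes was tested by the interaction. It was 0.49 ± 0.26 for NPCs, 0.62 ± 0.26 for the PSA-NCAM+ stage and 0.61 ± 0.26 for neurons (FDR = 0.19, 0.088 and 0.068), and none of these passed the threshold over all 24 libraries. With these 2 left out, the estimates were 0.49 ± 0.09, 0.63 ± 0.10 and 0.61 ± 0.09, with FDR of 4.9e-05, 7.5e-06 and 1.4e-06.

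Ezh1 (chr11:101191115-101226463, minus strand), the paralogue with weaker methyltransferase activity, was lower in slow/slow than in WT NPCs and PSA-NCAM+ cells. It was at 54.9, 51.2 and 55.1 CPM for WT and 43.0, 40.2 and 41.5 CPM for slow/slow ESCs. WT NPCs had 79.4, 84.0 and 85.6 CPM, the highest of the 8 groups, and slow/slow NPCs 39.7, 38.9 and 32.6 CPM. In PSA-NCAM+ cells the libraries had 70.0, 44.8 and 47.0 CPM for WT and 44.2, 22.1 and 21.9 CPM for slow/slow cells, and in neurons 38.0, 33.0 and 33.6 CPM and 32.1, 29.4 and 26.6 CPM.

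The slow/slow values lay below all WT values at each stage. The difference was -1.16 ± 0.20 (log2, SE) in NPCs (FDR = 6.5e-05) and -0.88 ± 0.20 in PSA-NCAM+ cells (FDR = 8.8e-04), a level 0.45 and 0.54 times that of WT. In ESCs it was -0.37 ± 0.20 (FDR = 0.15) and in neurons -0.25 ± 0.20 (FDR = 0.31). Leaving both libraries out, both were called, at -0.37 ± 0.08 (FDR = 1.8e-04) and -0.24 ± 0.08 (FDR = 0.0066). From ESCs to NPCs Ezh1 rose by 0.63 ± 0.20 in WT cells (FDR = 0.0091), and the value in slow/slow cells was -0.17 ± 0.20 (FDR = 0.49). In neurons it was below ESCs by 0.63 ± 0.20 in WT cells (FDR = 0.0067). In slow/slow cells it was below ESCs by 0.51 ± 0.20 at the PSA-NCAM+ stage and by 0.50 ± 0.20 in neurons (FDR = 0.028 and 0.026). The first was lost without any 1 of the slow/slow ESC libraries or PSA-NCAM+ replicates 2 or 3, and the second without slow/slow ESC replicate 1 or neuron replicate 3. In WT PSA-NCAM+ cells Ezh1 was at 0.01 ± 0.20 against ESCs (FDR = 0.98) over the 24 libraries and at -0.23 ± 0.08 (FDR = 0.017) without the 2 libraries. The interaction was -0.79 ± 0.28 (FDR = 0.045), and it passed the threshold in none of the fits that left out a single ESC or NPC library, where the FDR was up to 0.11. For the PSA-NCAM+ stage the interaction was -0.51 ± 0.28 (FDR = 0.19), and -0.69 ± 0.12 (FDR = 3.8e-05) with the 2 libraries left out.

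Since both genes are counted in the same library, their ratio does not depend on scaling. Replicate 1 of the PSA-NCAM+ cells was lower in Ezh2 and higher in Ezh1 than replicates 2 and 3 in both genotypes. In ESCs there were 3.00, 3.27 and 2.80 counts of Ezh2 for 1 of Ezh1 in WT and 4.48, 4.93 and 5.05 in slow/slow cells. In NPCs the ratios were 1.36, 1.18 and 1.28 in WT and 4.39, 4.85 and 5.77 in slow/slow cells, a 3.90-fold difference of geometric means. In PSA-NCAM+ cells they were 0.935, 2.75 and 2.38 against 2.77, 10.3 and 10.1, and in neurons 2.34, 3.08 and 3.04 against 5.68, 6.30 and 6.94. The groups did not overlap at any of the 4 stages, and the two-sided exact permutation p of 0.10 at each stage is the smallest that 3 against 3 can give. These are ratios of counts and not of molecules, since the transcripts differ in length.

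**Figure D2:**
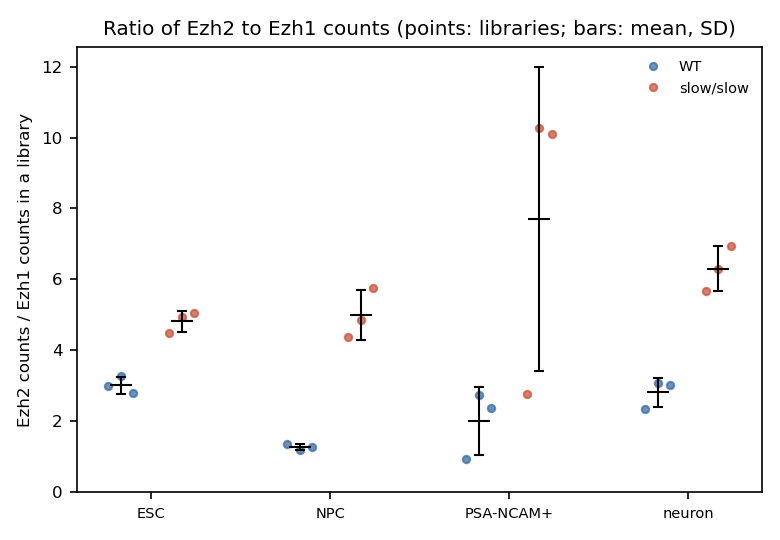
Ratio of Ezh2 to Ezh1 counts within each library (vertical axis from 0), by stage and genotype; points are libraries, black bars the mean and SD of 3. The slow/slow libraries lie above the WT libraries of the same stage throughout, with the largest fold difference of means in NPCs and with replicate 1 of both PSA-NCAM+ groups well below its fellow replicates.

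Of the core subunits, Eed (chr7:89954654-89980983, minus strand) overlapped between genotypes in ESCs, with 231.8, 241.5 and 217.1 CPM for WT and 221.8, 238.8 and 229.3 CPM for slow/slow cells. The values were 134.9, 127.6 and 139.4 CPM against 107.6, 108.8 and 108.5 CPM in NPCs, without overlap. They were 111.1, 138.5 and 114.8 CPM against 82.2, 98.4 and 97.8 CPM in PSA-NCAM+ cells, and 46.3, 49.1 and 49.7 CPM against 50.6, 48.9 and 48.0 CPM in neurons, where the groups overlapped. Eed was lower in slow/slow NPCs by 0.31 ± 0.08 (log2, SE; FDR = 0.0027) and in PSA-NCAM+ cells by 0.39 ± 0.08 (FDR = 3.6e-04), while in ESCs and neurons the differences were 0.00 ± 0.08 and 0.02 ± 0.08. The difference in PSA-NCAM+ cells departed from that in ESCs by -0.39 ± 0.11 (FDR = 0.014), and that in NPCs by -0.31 ± 0.11 (FDR = 0.052; 0.0051 without the 2 libraries). Over the course of differentiation Eed fell to 0.21 times its ESC level in neurons of both genotypes, by 2.25 ± 0.08 in WT and 2.23 ± 0.08 in slow/slow cells. Eed overlaps the noncoding gene E230029C05Rik on the opposite strand, and it was not stated whether counting used strand.

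Suz12 (chr11:79993106-80034123, plus strand) was the only one of the 8 genes called between genotypes at all 4 stages over the 24 libraries (Ezh1, Ezh2 and Phf19 were also called at all 4 without the 2 libraries), and its difference changed sign. WT ESCs had 497.6, 462.3 and 408.6 CPM against 362.4, 312.5 and 351.6 CPM for slow/slow ESCs. WT NPCs had 257.9, 248.9 and 256.4 CPM against 175.7, 194.3 and 185.6 CPM, and WT PSA-NCAM+ cells 223.9, 263.3 and 219.9 CPM against 156.9, 194.2 and 162.1 CPM. In neurons the order was the reverse, with 90.0, 92.8 and 91.5 CPM for WT and 128.0, 129.9 and 121.7 CPM for slow/slow cells. The groups did not overlap at any stage.

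In slow/slow cells Suz12 was lower by 0.41 ± 0.09 (log2, SE) in ESCs (FDR = 8.7e-04), by 0.46 ± 0.09 in NPCs (FDR = 2.2e-04) and by 0.46 ± 0.09 in PSA-NCAM+ cells (FDR = 1.9e-04). In slow/slow neurons it was higher by 0.47 ± 0.09 (FDR = 1.8e-04). The differences in neurons and in ESCs departed from each other by 0.88 ± 0.13 (interaction FDR = 1.2e-05). From ESCs to neurons Suz12 fell by 2.32 ± 0.09 in WT and by 1.43 ± 0.09 in slow/slow cells, to 0.20 and 0.37 times the starting level.

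Rbbp4 (chr4:129307100-129335370, minus strand), the histone-binding subunit, ranged from 367.9 to 826.5 CPM over the 24 libraries. It was lower than in ESCs at every later stage of both genotypes, by 0.87 ± 0.14 (log2, SE) in WT neurons and by 0.62 ± 0.14 in slow/slow neurons (FDR = 8.1e-06 and 3.5e-04). The call in slow/slow NPCs was lost under upper-quartile scaling (-0.32, FDR = 0.052) and without slow/slow ESC replicate 2 (-0.36, FDR = 0.052). Its differences between genotypes were -0.08 ± 0.14 in ESCs, 0.10 ± 0.14 in NPCs, 0.18 ± 0.14 at the PSA-NCAM+ stage and 0.17 ± 0.14 in neurons, none past the threshold. Without the 2 libraries the differences in PSA-NCAM+ cells (0.25 ± 0.08, FDR = 0.0055) and neurons (0.17 ± 0.06, FDR = 0.018) passed it. So did the interactions, which moved from 0.26 ± 0.19 to 0.33 ± 0.10 for the PSA-NCAM+ stage (FDR = 0.36 and 0.0087) and were 0.25 for neurons in both fits (FDR = 0.33 and 0.020). Rbbp4 overlaps the coding gene Sync on the opposite strand, and it was not stated whether counting used strand.

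Among the accessory subunits, Mtf2 (chr5:108065674-108109004, plus strand) had 495.9, 487.8 and 386.9 CPM for WT and 441.9, 391.2 and 418.4 CPM for slow/slow ESCs, which overlapped. It had 294.9, 275.2 and 282.6 CPM for WT and 177.1, 206.4 and 190.7 CPM for slow/slow NPCs, and 198.0, 256.7 and 192.0 CPM against 131.5, 162.0 and 137.7 CPM in PSA-NCAM+ cells. Neurons had 108.0, 110.9 and 111.2 CPM against 99.1, 98.9 and 94.3 CPM. The differences were -0.57 ± 0.11 (log2, SE) in NPCs (FDR = 1.6e-04) and -0.58 ± 0.11 in PSA-NCAM+ cells (FDR = 1.2e-04), against -0.13 ± 0.11 in ESCs (FDR = 0.35) and -0.18 ± 0.11 in neurons (FDR = 0.18). Mtf2 departed from its ESC difference by -0.44 ± 0.15 in NPCs (FDR = 0.039) and by -0.45 ± 0.15 in PSA-NCAM+ cells (FDR = 0.030), calls that were lost on leaving out some single libraries. The first was lost without WT ESC replicate 3, slow/slow ESC replicates 1 or 3, or replicates 1 or 3 of NPCs of either genotype (FDR = 0.062 to 0.10), and the second without the same ESC libraries, WT PSA-NCAM+ replicate 2 or slow/slow PSA-NCAM+ replicate 3 (FDR = 0.062 to 0.11). Part of Mtf2 overlaps Tmed5 on the opposite strand. Ezh2, Suz12, Phf19 and Jarid2 overlap noncoding genes on the opposite strand, and Ezh2 a pseudogene as well.

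Phf19 (chr2:34893757-34914026, minus strand), the other Polycomb-like gene, had the lowest RPKM of the 8 genes in ESCs and the largest change from ESCs in WT cells. WT ESCs had 2.93, 2.81 and 2.66 CPM and slow/slow ESCs 3.64, 3.52 and 3.25 CPM. WT NPCs had 17.4, 17.8 and 16.9 CPM, and slow/slow NPCs 8.15, 7.52 and 7.54 CPM. PSA-NCAM+ cells had 17.5, 11.5 and 14.4 CPM against 7.06, 7.09 and 8.46 CPM, and neurons 5.08, 6.53 and 5.62 CPM against 4.83, 4.97 and 4.47 CPM. The genotypes did not overlap at any stage, with slow/slow cells higher in ESCs and lower at the later stages.

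From ESCs to NPCs Phf19 rose by 2.63 ± 0.14 (log2, SE) in WT and by 1.16 ± 0.14 in slow/slow cells, or 6.20- and 2.23-fold (FDR = 3.7e-12 and 3.5e-07). The difference between genotypes was -1.17 ± 0.13 in NPCs (FDR = 5.2e-07) and -0.94 ± 0.13 in PSA-NCAM+ cells (FDR = 5.4e-06). It was 0.31 ± 0.14 in ESCs (FDR = 0.082) and -0.27 ± 0.13 in neurons (FDR = 0.095), and without the 2 libraries 0.31 ± 0.12 (FDR = 0.035) and -0.26 ± 0.11 (FDR = 0.030). The interactions were -1.48 ± 0.19 for NPCs, -1.25 ± 0.19 for the PSA-NCAM+ stage and -0.58 ± 0.19 for neurons (FDR = 1.6e-05, 5.5e-05 and 0.020), the first being the largest among the PRC2 genes. That for neurons was -0.47 without WT neuron replicate 2 (FDR = 0.065) and -0.42 under upper-quartile scaling (FDR = 0.080).

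Jarid2 (chr13:44729474-44921643, plus strand) had 198.7, 197.3 and 177.2 CPM for WT and 232.4, 210.7 and 216.5 CPM for slow/slow ESCs, and 313.6, 323.3 and 281.2 CPM against 341.9, 307.5 and 329.0 CPM in NPCs. PSA-NCAM+ cells had 186.9, 335.5 and 285.8 CPM against 169.8, 278.2 and 257.4 CPM, with the lowest value of each genotype in replicate 1. Neurons had 124.9, 121.8 and 121.0 CPM against 178.0, 186.2 and 172.7 CPM, without overlap. Jarid2 was higher in slow/slow neurons by 0.55 ± 0.16 (log2, SE; FDR = 0.0075), and the differences at the other stages were 0.20 ± 0.16, 0.09 ± 0.16 and -0.20 ± 0.16. With these 2 left out, the difference in ESCs (0.20 ± 0.07, FDR = 0.013) and that in PSA-NCAM+ cells (-0.21 ± 0.08, FDR = 0.026) passed the threshold with opposite signs. From ESCs to NPCs Jarid2 rose by 0.68 ± 0.16 in WT and 0.57 ± 0.16 in slow/slow cells, and in neurons it was below ESCs by 0.64 ± 0.16 in WT cells (FDR = 0.0011), while the value in slow/slow cells was -0.30 ± 0.16 (FDR = 0.093), which was called without the 2 libraries at -0.30 ± 0.07 (FDR = 2.7e-04). In PSA-NCAM+ cells Jarid2 was above ESCs by 0.50 ± 0.16 in WT cells (FDR = 0.0095; 0.098 without WT PSA-NCAM+ replicate 2), and the value in slow/slow cells was 0.10 ± 0.16 (FDR = 0.60), or 0.29 ± 0.08 (FDR = 0.0014) without the 2 libraries. Its interactions of -0.40 ± 0.23 for the PSA-NCAM+ stage and 0.34 ± 0.23 for neurons (FDR = 0.21 and 0.24) were called without them, at -0.42 ± 0.11 and 0.34 ± 0.10 (FDR = 0.0026 and 0.0036).

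**Figure D3:**
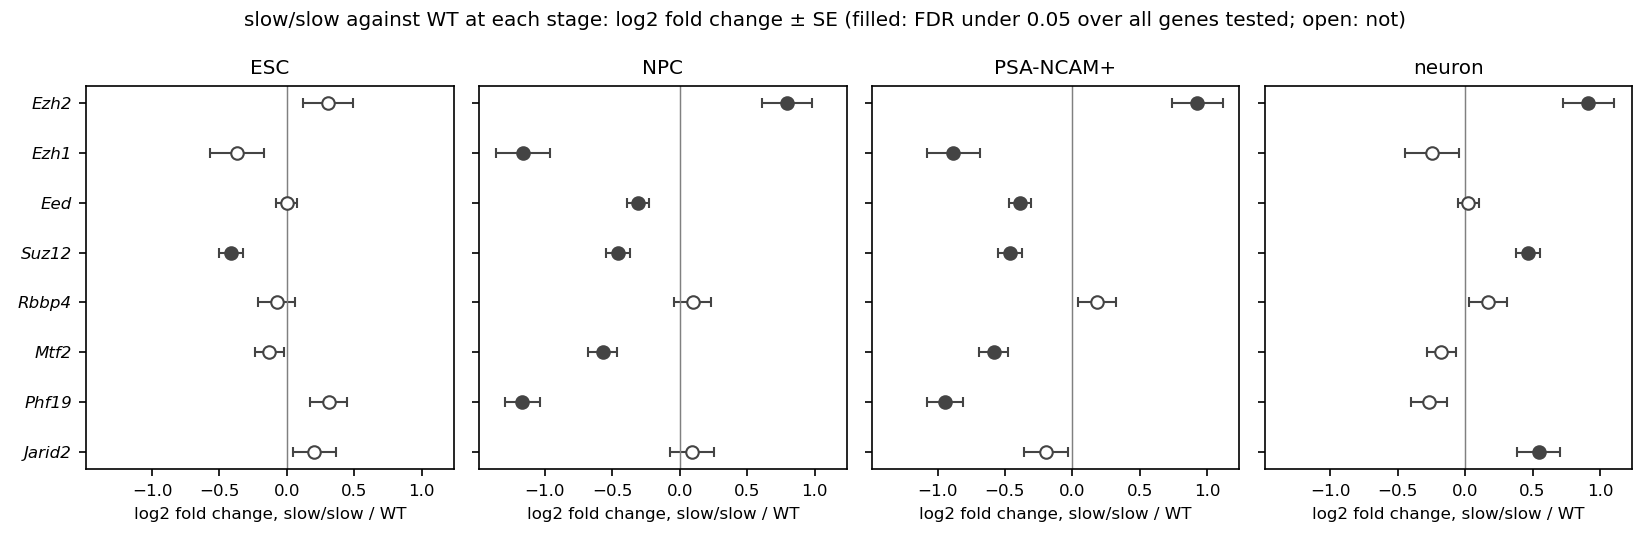
Log2 fold change of slow/slow over WT cells for each PRC2 gene at each stage (horizontal axes, shared), with the SE as bars; filled points passed an FDR of 0.05 over all genes tested, open points did not. Ezh2 lies to the right and Ezh1 to the left of 0 in all 4 panels, and Suz12 lies to the left in 3 panels and to the right in neurons.

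Counted together, 1 of the 8 genes was called between genotypes in ESCs, where 40.4% of all 16627 genes tested were called (21.9% lower, as this gene was). In NPCs 6 of 8 were called, 1 higher and 5 lower, against 56.7% of all genes (29.3% higher and 27.4% lower). The same 6 genes were called in PSA-NCAM+ cells with the same signs, against 56.7% of all genes (28.6% higher and 28.1% lower). In neurons 3 of 8 were called, all higher, against 51.9% of all genes (23.4% higher). The median log2 difference of the 8 genes was -0.04, -0.38, -0.42 and 0.10 at the 4 stages, beside -0.02, 0.01, -0.01 and -0.06 over all genes. The shares called were thus below those of all genes in ESCs and neurons and above them in NPCs and PSA-NCAM+ cells, and with 8 genes a share moves in large steps.

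These counts depended on the libraries in the fit. Without the 2 PSA-NCAM+ libraries 5, 6, 8 and 6 genes were called at the 4 stages in turn, against 56.7%, 69.5%, 68.0% and 68.3% of all genes. With only the 6 libraries of a stage 5 were called in ESCs (62.4% of all genes), 6 in NPCs (75.8%), 3 in PSA-NCAM+ cells (23.3% of all genes) and 5 in neurons (76.3% of all genes). The genes that lost their call in PSA-NCAM+ cells were Ezh1, Ezh2 and Eed (FDR = 0.10, 0.085 and 0.078). In PSA-NCAM+ cells, where libraries of the same replicate number deviated together, adding the replicate number as a block to the 6 libraries gave 6 called genes (41.3% of all genes), the same 6 as over the 24 libraries.

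Against ESCs, all 8 genes were called in WT NPCs, with 5 lower and 3 higher, where 65.6% of all genes were called (31.6% lower and 34.0% higher). In WT PSA-NCAM+ cells 7 were called (71.2% of all genes), and in WT neurons all 8 (82.8%), 7 of them lower (39.4%) and Phf19 higher. In slow/slow cells 6 were called at each of these stages, against 62.3%, 73.4% and 82.5% of all genes. The comparisons share the ESC libraries of a genotype. The medians over the 8 genes were -0.58, -0.71 and -0.80 in WT and -0.27, -0.49 and -0.56 in slow/slow cells, beside medians between 0.03 and 0.12 over all genes.

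The interaction with genotype was called for 3 of 8 genes for NPCs (Ezh1, Mtf2 and Phf19), against 24.6% of all genes, for 3 for PSA-NCAM+ cells (Eed, Mtf2 and Phf19), against 27.1%, and for 2 for neurons (Suz12 and Phf19), against 42.1%. Leaving both libraries out, it was called for 5, 7 and 5 genes, against 44.8%, 44.8% and 58.2% of all genes.

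Of 6 further PRC2 subunit genes that were tested, 3, 5, 5 and 2 were called between genotypes at the 4 stages in turn, where 40.4%, 56.7%, 56.7% and 51.9% of all genes were called. At each stage 1 of them was higher in slow/slow cells, and 2, 4, 4 and 1 were lower. The higher gene was E130012A19Rik in NPCs, by 0.38 ± 0.14 (log2, SE; FDR = 0.023), and Lcorl in PSA-NCAM+ cells, by 0.55 ± 0.15 (FDR = 0.0035). Both were called in the other direction elsewhere. The difference of E130012A19Rik was -0.66 ± 0.14 in PSA-NCAM+ cells and -0.46 ± 0.14 in neurons (FDR = 3.7e-04 and 0.0090). That of Lcorl was -0.40 ± 0.16 in ESCs and -0.45 ± 0.15 in NPCs (FDR = 0.048 and 0.015). Aebp2, whose product joins PRC2 together with JARID2, was lower in slow/slow cells by 0.47 ± 0.09 (log2, SE) in ESCs, by 0.85 ± 0.09 in NPCs and by 0.61 ± 0.09 in PSA-NCAM+ cells (FDR = 3.0e-04, 2.2e-07 and 9.3e-06), and its difference in neurons was 0.21 ± 0.09 (FDR = 0.052). Phf1, the third Polycomb-like gene, was lower by 0.85 ± 0.22 in NPCs and by 0.61 ± 0.22 in PSA-NCAM+ cells (FDR = 0.0026 and 0.021), so that all 3 Polycomb-like genes were lower in slow/slow cells at these 2 stages. Rbbp7, the paralogue of Rbbp4, was higher by 0.47 ± 0.09 in ESCs (FDR = 3.2e-04) and lower by 0.24 ± 0.09 in NPCs and by 0.27 ± 0.09 in PSA-NCAM+ cells (FDR = 0.024 and 0.013).

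The genes of PRC1, the complex that places ubiquitin on histone H2A and in part reads the PRC2 mark, were called in both directions. Of 22 tested, 2 were higher and 5 lower in slow/slow ESCs, 10 and 6 in NPCs, 9 and 4 at the PSA-NCAM+ stage, with 2 and 6 in neurons. These shares were below those of all genes (40.4%, 56.7%, 56.7% and 51.9%) in ESCs and neurons and above them in NPCs and PSA-NCAM+ cells. Bmi1 was higher by 1.50 in NPCs and by 1.07 in PSA-NCAM+ cells (FDR = 1.4e-08 and 6.8e-07), and Kdm2b, whose product recruits a PRC1 variant to CpG islands, by 1.11 and 1.28 (FDR = 3.4e-04 and 7.6e-05). Cbx7, one of the chromodomain subunits that bind methylated H3K27, was lower at all 4 stages, by 0.39, 0.44, 1.03 and 1.98 (FDR = 0.0096, 0.0027, 3.7e-07 and 1.4e-10). Ring1 was higher at all 4, by 0.56, 0.61, 0.46 and 0.52 (FDR = 0.0013, 3.4e-04, 0.0034 and 0.0014). Of the 2 demethylase genes that act on the PRC2 mark, Kdm6a was higher in slow/slow NPCs by 0.41 ± 0.09 and in PSA-NCAM+ cells by 0.24 ± 0.09 (FDR = 9.4e-04 and 0.035), and Kdm6b was called at no stage.

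Because Ezh2 is known to follow the cell cycle, 20 proliferation genes were counted beside it. In slow/slow cells 3 were higher in ESCs, 5 higher and 1 lower in NPCs, 6 higher at the PSA-NCAM+ stage and 11 higher in neurons, with a median log2 difference of 0.14, 0.03, 0.26 and 0.46. The shares called in either direction were below the 40.4%, 56.7% and 56.7% of all genes in ESCs, NPCs and PSA-NCAM+ cells. Of all genes, 29.3% were called higher in NPCs and 28.6% at the PSA-NCAM+ stage. In neurons 11 of the 20 were called, all higher, where 51.9% of all genes were called and 23.4% were called higher. The median log2 difference over all genes in neurons was -0.06. Their sum was 6984 to 7434 CPM for WT and 7918 to 8555 CPM for slow/slow ESCs, 5258 to 5369 and 6203 to 6274 CPM in NPCs, and 1547 to 1974 and 2425 to 2523 CPM in neurons. In PSA-NCAM+ cells the ranges 3087 to 4575 and 3012 to 6041 CPM overlapped. Mki67, a marker of cycling cells, was higher in slow/slow neurons by 1.11 ± 0.17 (FDR = 1.3e-05) and Ccnb2, a mitotic cyclin, by 1.08 ± 0.10 (FDR = 2.0e-08). The part of proliferation in the differences of Ezh2 was not tested.

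Across the 24 libraries Eed, Suz12 and Mtf2 had the most alike profiles among the PRC2 genes, with Pearson's r of 0.97 for Eed and Mtf2, 0.97 for Eed and Suz12, and 0.96 for Suz12 and Mtf2 (log2 CPM, prior count 2). Ezh1 and Ezh2 were at the other end with r = -0.59. These are descriptions over samples that fall into 8 groups. Of all other genes, Tdh was most like Eed (r = 0.99), Eif2s2 most like Mtf2 (0.99), 4930534B04Rik most like Suz12 (0.98) and Ppp1cc most like Rbbp4 (0.97). Slc25a42 was most like Ezh1 (0.96), Ribc1 most like Jarid2 (0.95), Stx2 most like Phf19 (0.95) and Mmachc most like Ezh2 (0.94).

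The start-site windows of the PRC2 genes were searched for E2F-type motifs, since E2F factors are known regulators of genes of dividing cells. The letters TTCCCGC and TTGGCGC were sought on both strands in RefSeq windows (GRCm38.p6) reaching from 250 bases before to 50 bases after the start. At least 1 of them was found in 4 of the 10 windows of the 8 genes and in 6.8% of 32851 windows of all genes. Each match is printed with its gene's strand read 5′ to 3′ and the motif in capitals.
Ezh2 (chr6:47595010-47595036, minus strand): gttgctgcgtTTGGCGCtcggtccggt
Rbbp4 (chr4:129335369-129335395, minus strand): ttggtcggtgTTGGCGCgaaggcacgc
Suz12 (chr11:79992878-79992904, plus strand): acccctcattTTCCCGCgaattcagtt
Phf19 (chr2:34914168-34914194, minus strand): tcaataattcGCGGGAAaacgcgaaaa
The match begins 4 bases after the start of Ezh2, 15 bases before that of Rbbp4, 218 before that of Suz12 and, on the opposite strand, 208 before that of Phf19. The letters CCAAT, in either orientation, were in 7 of the 10 windows and in 37.4% of all windows. A match is a description of these letters and no evidence of binding.

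In the splicing table, PSI is the percent of transcripts that include an exon, estimated from junction reads. Of the exon events of the PRC2 genes, 41, 43, 44 and 42 had enough reads in all 6 libraries of the 4 stages in turn. An exon was called when mean PSI differed by over 10 points with a posterior probability of the sign over 0.95. By this rule 0, 2, 0 and 1 exons were called between genotypes, against 0.809%, 2.93%, 0.966% and 3.55% of all exons tested. No intron of these genes was called (0.0541%, 0.321%, 0.0826% and 0.260% of all introns) and no splice-site entry (0.113%, 0.878%, 0.206% and 0.460% of all entries), and no exon of Phf19 had enough reads. All called exons between genotypes belonged to Mtf2.

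The first is a 202-base exon of Mtf2 at chr5:108498181-108498382 (mm9, plus strand), and the second a 148-base exon at chr5:108502326-108502473, its next neighbour. By length and by both flanking introns they match exons 2 and 3 of a GENCODE transcript of Mtf2 that is annotated as processed, without an open reading frame, and that places both between exon 1, which holds the start codon, and the next coding exon. Neither length is a multiple of 3. Their first bases are printed up to the first stop codon in frame with the annotated start, which is in capitals.
Mtf2 exon of 202 bases: aaaggttTAA
Mtf2 exon of 148 bases: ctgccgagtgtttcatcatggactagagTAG
Read from the start codon in exon 1, the stop is the 5th codon where the 202-base exon is included and the 12th where the 148-base exon is included alone.

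The 202-base exon had a PSI of 73.7, 70.7 and 77.8% in the 3 WT NPC libraries and of 40.6, 45.1 and 34.5% in slow/slow NPCs. The difference was -34.0 points over 191 to 364 reads per library, and passed both thresholds. At the other stages the exon was between 34.2 and 53.3% in WT and between 33.8 and 51.5% in slow/slow cells, so WT NPCs alone stood out. ESCs had 47.1, 46.1 and 46.1% in WT and 40.3, 37.5 and 37.9% in slow/slow cells, a difference of -7.86 points that was under the threshold. In PSA-NCAM+ cells the difference was -7.44 points, and -10.3 points without the 2 libraries that stood apart, which passed the threshold. From ESCs to NPCs it rose by 27.6 points in WT cells, where 2.42% of all exons were called, and the value in slow/slow cells was 1.47 points.

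The 148-base exon followed the same order in NPCs, with 51.7, 49.4 and 45.3% in WT and 31.6, 29.4 and 28.5% in slow/slow cells, a difference of -19.0 points (posterior 0.9997). From ESCs to NPCs it rose by 13.0 points in WT cells, and in slow/slow cells it fell by 10.01 points, just past the threshold, where 0.763% of all exons were called. The latter was not called without slow/slow NPC replicate 2 or 3 or slow/slow ESC replicate 1, at -9.34 to -9.79 points. In neurons the order was the reverse, with 24.01, 25.2 and 22.4% in WT and 31.9, 38.2 and 32.5% in slow/slow cells. That difference of 10.3 points (posterior 0.969) was just past the threshold and fell to 8.37 points without slow/slow neuron replicate 2 and to 9.62 points without WT neuron replicate 3. By a limma interaction test on the reads, chosen after seeing these values, the genotype difference in neurons departed from that in NPCs by 40.1 points for the 202-base exon and by 29.3 points for the 148-base exon (FDR = 2.3e-04 for both). The same test, with a departure over 10 points required, called 3.55% of all exons. Both exons were included more in WT NPCs, where Mtf2 counts were higher, than in slow/slow NPCs.

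**Figure D4:**
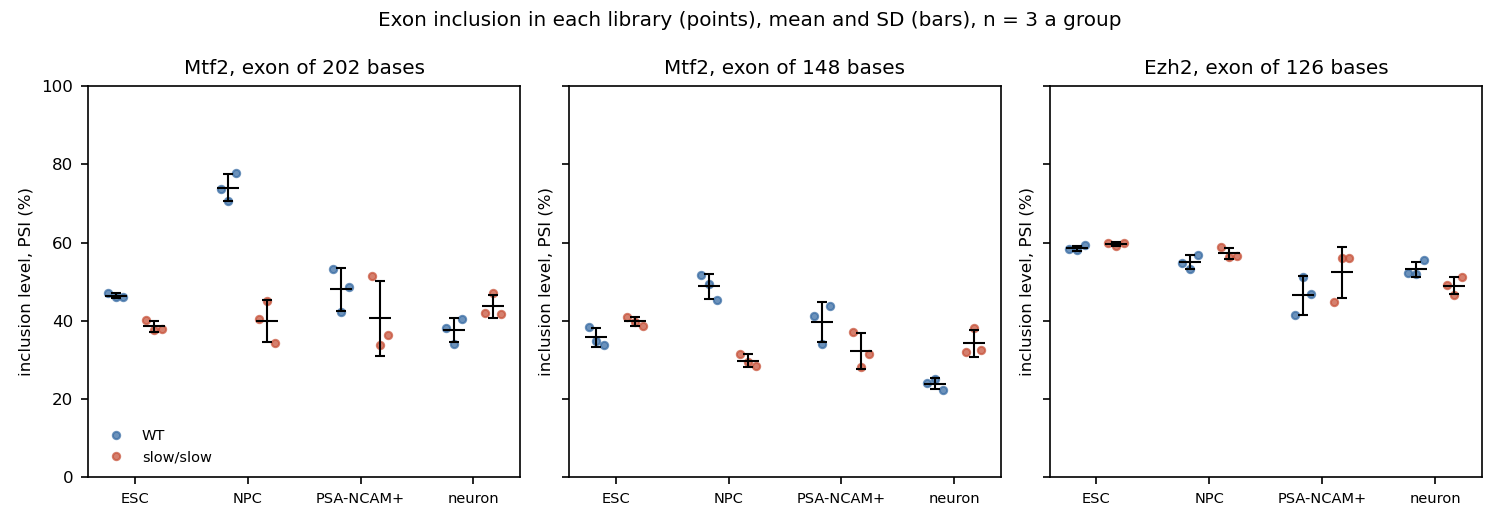
Inclusion level (PSI, in percent, axis 0 to 100) of the 2 exons of Mtf2 and of exon 14 of Ezh2 in each library, by stage and genotype; points are libraries, black bars the mean and SD of 3. WT NPCs stand above all other groups for the 202-base exon of Mtf2, at 70.7 to 77.8%, and the exon of Ezh2 lies at 58.1 to 59.9% in ESCs and below that in neurons.

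Ezh2 has an alternative exon of 126 bases at chr6:47491844-47491969 (mm9, minus strand), which matches exon 14 of a coding GENCODE transcript of Ezh2 by length and both introns. It is coding and a multiple of 3 in length, so skipping it leaves the frame intact, and it lies in the part of the gene that encodes the cysteine-rich CXC region before the catalytic SET domain. The capitals mark its 7 cysteine codons.
Ezh2 exon 14: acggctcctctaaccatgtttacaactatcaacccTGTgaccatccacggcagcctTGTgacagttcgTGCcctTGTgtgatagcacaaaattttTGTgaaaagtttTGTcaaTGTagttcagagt
Its PSI was 58.4, 58.1 and 59.3% in WT and 59.9, 59.2 and 59.8% in slow/slow ESCs, with 698 to 1312 reads per library. It was 54.9, 53.3 and 56.9% in WT and 58.8, 56.3 and 56.6% in slow/slow NPCs, and 52.2, 51.9 and 55.4% in WT and 49.2, 46.7 and 51.1% in slow/slow neurons. Between genotypes it differed by 1.03, 2.22, 5.87 and -4.15 points at the 4 stages, none past the threshold, while the level of Ezh2 differed by up to 1.90-fold.

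Over differentiation exon 14 fell in slow/slow cells by 10.6 points from ESCs to neurons (posterior 0.9999), where 3.89% of all exons were called. Without slow/slow neuron replicate 2 the difference was -9.48 points and was not called. The corresponding value in WT cells was -5.45 points. Slow/slow PSA-NCAM+ cells had 44.85, 56.2 and 56.05%, with replicate 1 lowest as in WT cells. In WT PSA-NCAM+ cells it was at 41.4, 51.2 and 46.9%, which was 12.1 points below ESCs (posterior 0.995; 1.55% of all exons called), but limma called no PRC2 exon in that comparison. Without WT PSA-NCAM+ replicate 1, one of the libraries that stood apart, the difference was -9.57 points and was not called. The 148-base exon of Mtf2 fell by 11.9 points from ESCs to neurons in WT (posterior 0.992; 5.31% of all exons called). In slow/slow PSA-NCAM+ cells no exon of these genes was called against ESCs, where 1.70% of all exons were.

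Most other exons of the PRC2 genes hardly varied. In neurons 39 of the 42 exons tested differed by under 5 points between genotypes, with a median of 0.208 points. The 69-base coding exon 4 of Suz12 (chr11:79812559-79812627, mm9) had 80.7, 81.2 and 84.9% in WT and 90.9, 91.6 and 90.2% in slow/slow neurons, a difference of 8.64 points without overlap but under the threshold. No tested exon of Ezh1, Eed or Rbbp4 differed by over 5 points between genotypes at any stage.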

How the data were processed

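RNA-seq was examined in 24 samples, 3 replicates in each of 8 combinations of genotype and stage, which the methods describe as independent differentiations. The authors deposited gene counts for each sample, together with mean RPKM values for each group. They also deposited splicing percentages (PSI) from vast-tools, with the reads behind each. Per the labels, reads were converted with bcl2fastq 2.17.1.14 and the build was mm9. Counts per gene came from vast-tools, and its use of strand was not given in the sources used here. The columns of group means do not name their unit, which was taken as RPKM from their proportion to counts over length. Columns of the authors' own comparisons, which hold fold changes and p-values, were not used.

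Counts were present for 21553 genes (32974432 to 104466886 per sample), of which 16627 passed filterByExpr. They were scaled by TMM and fitted in edgeR 4.0.16 (R 4.3.3) by the quasi-likelihood test with 1 model of 8 groups. FDR is the Benjamini-Hochberg adjusted p over all genes tested, called under 0.05, and SE is the log2 change divided by the square root of F. Interactions are differences between the slow/slow against WT changes at a stage and in ESCs. The same script was tested on simulated counts. PSI was compared from the deposited percent values and reads, keeping events with enough reads in every sample compared, with a posterior from betas pooled over replicates, and limma 3.58.1 on logits of the reads gave the interaction of exons. DESeq2 1.42.0, other scalings, filters and left-out libraries served as alternatives.

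The 8 genes and all lists were chosen with earlier results of these data known. All 8 were named, with any member of the lists of PRC2, PRC1 and demethylase genes. Of the proliferation genes, up to 2 called genes with the largest rise and fall were named in each comparison, and for each PRC2 gene up to 3 genes of highest Pearson correlation. Exons were named where called, or where they had the largest difference of their gene. Same-numbered libraries of the 2 genotypes deviated together from their group means in PSA-NCAM+ cells (r of 0.54, 0.45 and 0.40 for the 3 numbers), and not at the other stages. Both libraries numbered 1 stood apart there, and deviations from a group mean sum to 0. These values therefore cannot tell whether the libraries numbered 2 and 3 are paired. A block by replicate number was fitted only as an alternative. Exon sequences came from GENCODE transcripts, and promoter windows from RefSeq.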

Additional observations from a re-analysis of the deposited data

Results flagged for a closer look

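Differences between genotypes that changed with the stage, by a test of the interaction, were found for the following PRC2 genes and exons. Against the difference in ESCs, the log2 difference of slow/slow from WT cells in NPCs departed by -0.79 for Ezh1, by -0.44 for Mtf2 and by -1.48 for Phf19. In PSA-NCAM+ cells it departed by -0.39 for Eed, by -0.45 for Mtf2 and by -1.25 for Phf19. In neurons it departed by 0.88 for Suz12 and by -0.58 for Phf19. The departure of Ezh1 did not hold in any fit that left out a single ESC or NPC library. Those of Mtf2, and that of Phf19 in neurons, did not hold when some single libraries were left out.

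The difference in exon inclusion in neurons departed from that in NPCs by 40.1 points for the 202-base exon of Mtf2, by 29.3 points for its 148-base exon and by 8.41 points for its 78-base exon. An 82-base exon of Ezh2 departed by 2.92 points, a small change (limma FDR = 0.0076). The difference in NPCs departed from that in ESCs by -26.1 points for the 202-base exon of Mtf2 (FDR = 0.0087). It departed by -23.0 points for the 148-base exon and by -6.11 points for the 78-base exon of Mtf2 (FDR = 0.0047 and 0.037). With a departure over 10 points also required, 0.845% of all exons were called. The 78-base exon of Mtf2 and the 82-base exon of Ezh2 did not reach that limit, and are listed by FDR alone. In neurons against ESCs 0 of 41 exons of the PRC2 genes were called by limma. With the same limit required, 0.948% of all exons were called there.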

How the results depend on the processing

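Of 1560 log2 changes recomputed for the PRC2 genes, 1420 kept direction and side of the threshold, 34 that were not called changed sign, 39 lost and 50 gained a call, 2 reversed, and 15 moved when set against the median of their chromosome. Alternatives that concern the 2 PSA-NCAM+ libraries numbered 1, a stage fit with the block, the comparisons of exons of NPCs and PSA-NCAM+ cells with ESCs, and the exon interaction were chosen after seeing the data. Without these 2 libraries Ezh1 in WT PSA-NCAM+ cells against ESCs was at -0.23 (FDR = 0.017; 0.01 over all libraries) and Ezh2 in slow/slow cells at 0.16, both of the opposite sign. The genes called were then 5 in ESCs and 6 in neurons (56.7% and 68.3% of all genes), with interactions for 5, 7 and 5 (44.8%, 44.8% and 58.2%). With the samples of a stage alone 5, 3 and 5 genes were called in ESCs, PSA-NCAM+ cells and neurons (62.4%, 23.3% and 76.3% of all genes). With the replicate block added 5 were called in ESCs and 6 in neurons, and no share of all genes is given for these fits, so the counts cannot be set against it. Polr2a in NPCs, 0.29 and not called over all libraries, was called at 0.27 in the stage fit, at 0.28 with the block and at 0.29 without the 2 libraries. Upper-quartile scaling moved the median of all genes in neurons from -0.06 to 0.08 and the share of higher among called genes from 45.2% to 59.2%.

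The replicate block over the 24 samples changed no genotype call of the PRC2 genes, and gave a call to the interaction of Eed for NPCs (FDR = 0.042) and of Ezh2 for neurons (FDR = 0.038). A difference over 15 points left 0 exons in neurons, 0 in neurons against ESCs for both genotypes, 1 in WT and 0 in slow/slow NPCs against ESCs, and 0 in WT PSA-NCAM+ cells against ESCs. Limma, with or without the replicate block, called 0 exons in slow/slow NPCs and 0 in WT PSA-NCAM+ cells against ESCs. Without the 2 libraries 1 exon was called between genotypes in PSA-NCAM+ cells. The cause of these differences was not tested.

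Leaving out single libraries gave 1 to 1, 6 to 6, 6 to 7 and 3 to 4 genes between genotypes in ESCs, NPCs, PSA-NCAM+ cells and neurons, and 8 to 8, 6 to 7 and 8 to 8 against ESCs in WT and 5 to 6 at each stage in slow/slow cells. Over all 24 libraries the shares of all genes called between genotypes were 40.4%, 56.7%, 56.7% and 51.9%. Against ESCs they were 65.6%, 71.2% and 82.8% in WT and 62.3%, 73.4% and 82.5% in slow/slow cells. No shares are given for the fits with a library left out. Interactions ranged from 1 to 3 for NPCs (1 without WT ESC replicate 3, slow/slow ESC replicates 1 or 3, WT NPC replicates 1 or 3, or slow/slow NPC replicates 1 or 3), from 2 to 6 for PSA-NCAM+ cells (6 without slow/slow replicate 1) and from 1 to 2 for neurons (1 without WT replicate 2). Polr2a ranged from -0.06 to 0.03, 0.24 to 0.37, -0.13 to 0.32 and -0.99 to -0.91, the 0.32 being called without slow/slow PSA-NCAM+ replicate 1 (FDR = 0.0088). Exons ranged from 0 to 0, 2 to 2, 0 to 1 (1 without slow/slow replicate 1 or WT replicate 2) and 0 to 1 between genotypes, and for neurons against ESCs from 1 to 2 in WT (2 without WT neuron replicate 3) and 0 to 1 in slow/slow cells (0 without neuron replicate 2). They ranged for NPCs against ESCs from 2 to 2 in WT and 0 to 1 in slow/slow cells (0 without NPC replicates 2 or 3 or ESC replicate 1), and for PSA-NCAM+ cells against ESCs from 0 to 1 in WT (0 without replicate 1) and 0 to 0 in slow/slow cells. The groups of 3 and, for exons, the reads per library limit what could be called.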
